A study of Schizosaccharomyces pombe with 97 samples.

Results

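Genes for amino acid synthesis were followed in fission yeast, *Schizosaccharomyces pombe*, as cells left growth and entered the quiescent state that nitrogen starvation brings about. The members are the genes of the count table whose name begins with *arg*, *lys*, *his*, *leu*, *ilv*, *met*, *trp*, *thr* or *ser* directly followed by a digit, which gave 49 of 7014 genes. Of these, 43 encode enzymes: 9 of the arginine pathway, 6 of the branched-chain pathway (isoleucine, valine and leucine), 6 of the histidine pathway, 6 of the lysine pathway, 8 of methionine and sulfur metabolism, 3 of serine, 1 of threonine and 4 of tryptophan. The other members are 3 antisense RNAs (*arg4-antisense-1*, *his5-antisense-1* and *ser2-antisense-1*) and 3 genes that share the naming but not the function, namely *arg82*, an inositol polyphosphate kinase, and *trp1322* and *trp663*, which encode TRP-like ion channels. All 49 members were among the 6608 genes tested, which had more than 1 CPM (count per 1e6 counted reads) in at least 3 libraries.

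RNA-seq was done on 6 deletion mutants and on *smt0*, the wild type. The mutants lack *hht2* (a histone H3 gene), *pht1* (the histone variant H2A.Z), *iec1*, *arp42* or *ies2* (subunits linked to the Ino80 chromatin remodeling complex), or *asp1* (an inositol polyphosphate kinase). All strains carry the *smt0* allele, which fixes them as cells of the M mating type, and each deletion replaces the gene by the kanMX4 cassette. The mutants came from a deletion collection whose strains carry *leu1-32*, crossed to *smt0* and selected as prototrophs. Cells grew in minimal medium with glutamate as the nitrogen source (T0) and were then kept without nitrogen for 1 day (T1D), 1 week (T1W) or 2 weeks (T2W). Every strain and time point had 3 libraries, named A, B and C and called cultures below. *ies2∆* had none at T2W, which made 81 libraries in 27 groups. By the study's methods, a T0 sample was drawn from each culture and the rest was then starved. Time points of a strain are thus repeated samples of its cultures, while the main fits treat all libraries as independent. Whether a letter names the same culture at every time is not stated. The study's methods speak of the *ies2∆* libraries as a second batch, without saying of which step, and no wild type library is named as part of it, so an effect of that batch and one of the deletion cannot be told apart.

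Gene counts summed to 1980570 to 18992894 per library, with a median of 5149311. Levels below are CPM after TMM scaling on the gene counts, that is, relative to the other genes of the same library. A second scale, from the ERCC spike-in RNAs whose amount was set by the vegetative cells counted per culture, is named where it is used. Counts on it stand beside those it turns, and the others at the end of the report. Fold changes, standard errors (SE) and adjusted p come from edgeR's quasi-likelihood test over all groups with Benjamini-Hochberg adjustment over the 6608 genes, and a gene is called higher or lower at an adjusted p under 0.05. In RNA from whole cultures, less RNA per cell and fewer cells that hold it cannot be told apart. The study measured viability and DNA content by flow cytometry, and those values were not used here. By them every mutant had a lower viability than wild type at T2W, and *asp1∆* the lowest. In every mutant except *hht2∆*, fewer cells than in wild type had unreplicated DNA at each starved time point. That share was lowest in *iec1∆*. The part of these differences in the results was not tested. The labels were checked with the reads on each deleted gene, as a percentage of the *smt0* mean at the same time: 3.56 to 8.96% in *asp1∆*, 0.202 to 36.0% in *hht2∆*, 0.97 to 221% in *ies2∆*, 9.76 to 103% in *arp42∆*, 38.8 to 120% in *pht1∆* and 55.2 to 141% in *iec1∆*. The medians were 76.5% in *pht1∆*, 79.2% in *iec1∆* and 67.3% in *arp42∆*, so the reads on these 3 genes do not show the deletion in most of those libraries. The counted exons reach past the coding sequence, which is 33.2% of them for *pht1*, 43.6% for *arp42*, 51.7% for *iec1* and 52.8% for *hht2*. For *hht2∆*, culture A had 15.4 to 36.0% at all time points and culture C had 15% at T2W, against at most 0.942% in the other 7 libraries. For *ies2∆*, culture C at T0 had 221% and culture B at T1D had 39.7%, against at most 10.11% in the other 7. The strain names below are those of the labels. The 6 genes called M cell genes below were *mfm1*, *mfm2*, *mfm3*, *mam1*, *mam2* and *ste6*. The 3 called P cell genes were *map2*, *map3* and *sxa2*. These are list names only, since *ste6* is not confined to M cells and *sxa2* acts in M cells. The genes of both lists were detected in every group, with summed levels of 234 to 11954 and 32.3 to 185 CPM.

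Fungi make all protein amino acids from simple precursors, with ammonium or glutamate as the source of the amino groups. Arginine is built from glutamate by way of ornithine and citrulline, lysine by the fungal aminoadipate route that begins with homocitrate, and the branched-chain amino acids by a set of shared mitochondrial steps. Methionine needs sulfate to be activated and reduced to sulfide, which homocysteine synthase joins to an acetylated homoserine. In budding yeast many of these genes are induced together by the activator Gcn4 when an amino acid runs short. Fission yeast has no direct copy of Gcn4 and uses the GATA-type factor Fil1 for this role. When nitrogen is withdrawn, fission yeast cells divide without growing, arrest with an unreplicated genome, and live by recycling their own proteins.

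The 250 bases before the RefSeq start of each gene (assembly ASM294v3, whose gene boundaries differ from those of the count table) were read for the 43 enzyme genes, all of which were matched. GATAAG, the core bound by GATA factors, was searched on both strands and stood in 7 of the 43 promoters (16.3%), against 10.2% of 5112 protein-coding promoters. TGACTC, the core of the Gcn4 site of budding yeast, stood in 2 (4.65% against 5.63%), and CACGTG, the core bound by Cbf1 at sulfur genes of budding yeast, stood in 1 (2.33% against 1.33%). The searched letters do not overlap one another. A match is a description of letters and not a binding site. The promoters below are shown because their genes carry the results: *arg4*, *arg41* and *arg7* are the 3 of 9 arginine genes with GATAAG, *leu3* holds TGACTC, and *met17*, whose RNA fell most in the wild type, holds none of the 3 motifs. Capitals mark the match to GATAAG, which in *arg4* lies on the other strand, or to TGACTC. The windows, in ASM294v3 coordinates, are chrII:4045332-4045581 (minus strand), chrII:4366836-4367085 (minus strand), chrII:313007-313256 (plus strand), chrII:2690613-2690862 (minus strand) and chrII:465130-465379 (plus strand), each read 5′ to 3′ on the strand of its gene.
arg4: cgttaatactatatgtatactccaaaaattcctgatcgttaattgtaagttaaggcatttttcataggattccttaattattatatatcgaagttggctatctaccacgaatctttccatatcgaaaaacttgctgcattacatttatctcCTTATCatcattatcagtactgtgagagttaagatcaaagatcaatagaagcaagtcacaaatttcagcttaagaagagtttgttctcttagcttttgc
arg41: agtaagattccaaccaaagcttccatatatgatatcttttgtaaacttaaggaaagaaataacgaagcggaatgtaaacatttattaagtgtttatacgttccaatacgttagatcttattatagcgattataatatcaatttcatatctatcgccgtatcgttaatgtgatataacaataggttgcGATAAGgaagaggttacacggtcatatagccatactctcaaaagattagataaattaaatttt
arg7: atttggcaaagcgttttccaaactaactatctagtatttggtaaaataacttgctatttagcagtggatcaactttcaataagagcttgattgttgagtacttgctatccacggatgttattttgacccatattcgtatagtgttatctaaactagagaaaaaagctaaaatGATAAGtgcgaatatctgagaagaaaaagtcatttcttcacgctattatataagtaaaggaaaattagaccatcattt
leu3: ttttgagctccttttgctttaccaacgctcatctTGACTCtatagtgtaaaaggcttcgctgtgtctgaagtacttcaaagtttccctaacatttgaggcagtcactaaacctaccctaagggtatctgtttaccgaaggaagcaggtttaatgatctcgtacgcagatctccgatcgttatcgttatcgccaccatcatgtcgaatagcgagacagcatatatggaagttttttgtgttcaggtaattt
met17: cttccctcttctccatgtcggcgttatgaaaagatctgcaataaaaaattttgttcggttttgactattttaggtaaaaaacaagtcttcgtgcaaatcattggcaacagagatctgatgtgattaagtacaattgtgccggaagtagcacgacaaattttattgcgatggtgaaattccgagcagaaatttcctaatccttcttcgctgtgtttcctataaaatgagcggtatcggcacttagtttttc
GATAAG begins 99 bases before the start of *arg4*, 63 before *arg41* and 78 before *arg7*, and TGACTC 216 bases before *leu3*. The other matches were GATAAG at *ilv1*, *met11*, *trp2* and *trp3*, TGACTC at *his7* and CACGTG at *ilv5*.

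In growing *smt0* cells the enzyme genes together took 2.22% ± 0.136 of the gene reads (SD, n = 3). Per kilobase of exon, the highest members at T0 were *ilv5* (acetohydroxyacid reductoisomerase) with 915 CPM per kb, *met26* (methionine synthase) with 879 and *lys4* (homocitrate synthase, the first step to lysine) with 751. The lowest enzyme genes were *trp4* with 20.1 and *met8* with 28 CPM per kb, and the antisense RNAs and *trp663* lay under 1 CPM per kb.

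After 1 day without nitrogen most of the enzyme genes fell relative to other genes in *smt0*. Of the 49 members, 34 were lower and 3 higher at T1D than at T0, against 26.6% higher and 27.4% lower of all genes tested. At T1W 36 were lower and 4 higher (all genes: 28% higher and 32% lower), and at T2W 35 were lower and 4 higher (all genes: 31.3% higher and 32.4% lower). The members' median log2 fold change from T0 was -1.47 after 1 day, -1.30 after 1 week and -1.40 after 2 weeks (all genes: 0.00, -0.05 and -0.03). In all, 33 members were lower at all 3 times, as were 22.3% of all genes. On the ERCC scale no member was called higher at any of the 3 times. The 3 members higher at T1D kept a positive change on it but did not pass. Their log2 fold changes were 1.59 for *ser2-antisense-1*, 1.08 for *trp663* and 0.36 for *trp1322*. At T1W and T2W all 49 members were lower on the ERCC scale, as were 6431 and 6348 of the 6608 genes. The share of gene reads on the enzyme genes was 1.06% ± 0.036 after 1 day, 1.16% ± 0.0917 after 1 week and 1.06% ± 0.124 after 2 weeks (SD, n = 3 each). The 6 M cell genes were all higher at T1D, with summed levels of 4989 to 7117 CPM at T1D against 296 to 377 CPM at T0, and summed to 347 to 1207 CPM at T1W and 768 to 800.4 CPM at T2W. Their part in the result was not tested.

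**Figure D1:**
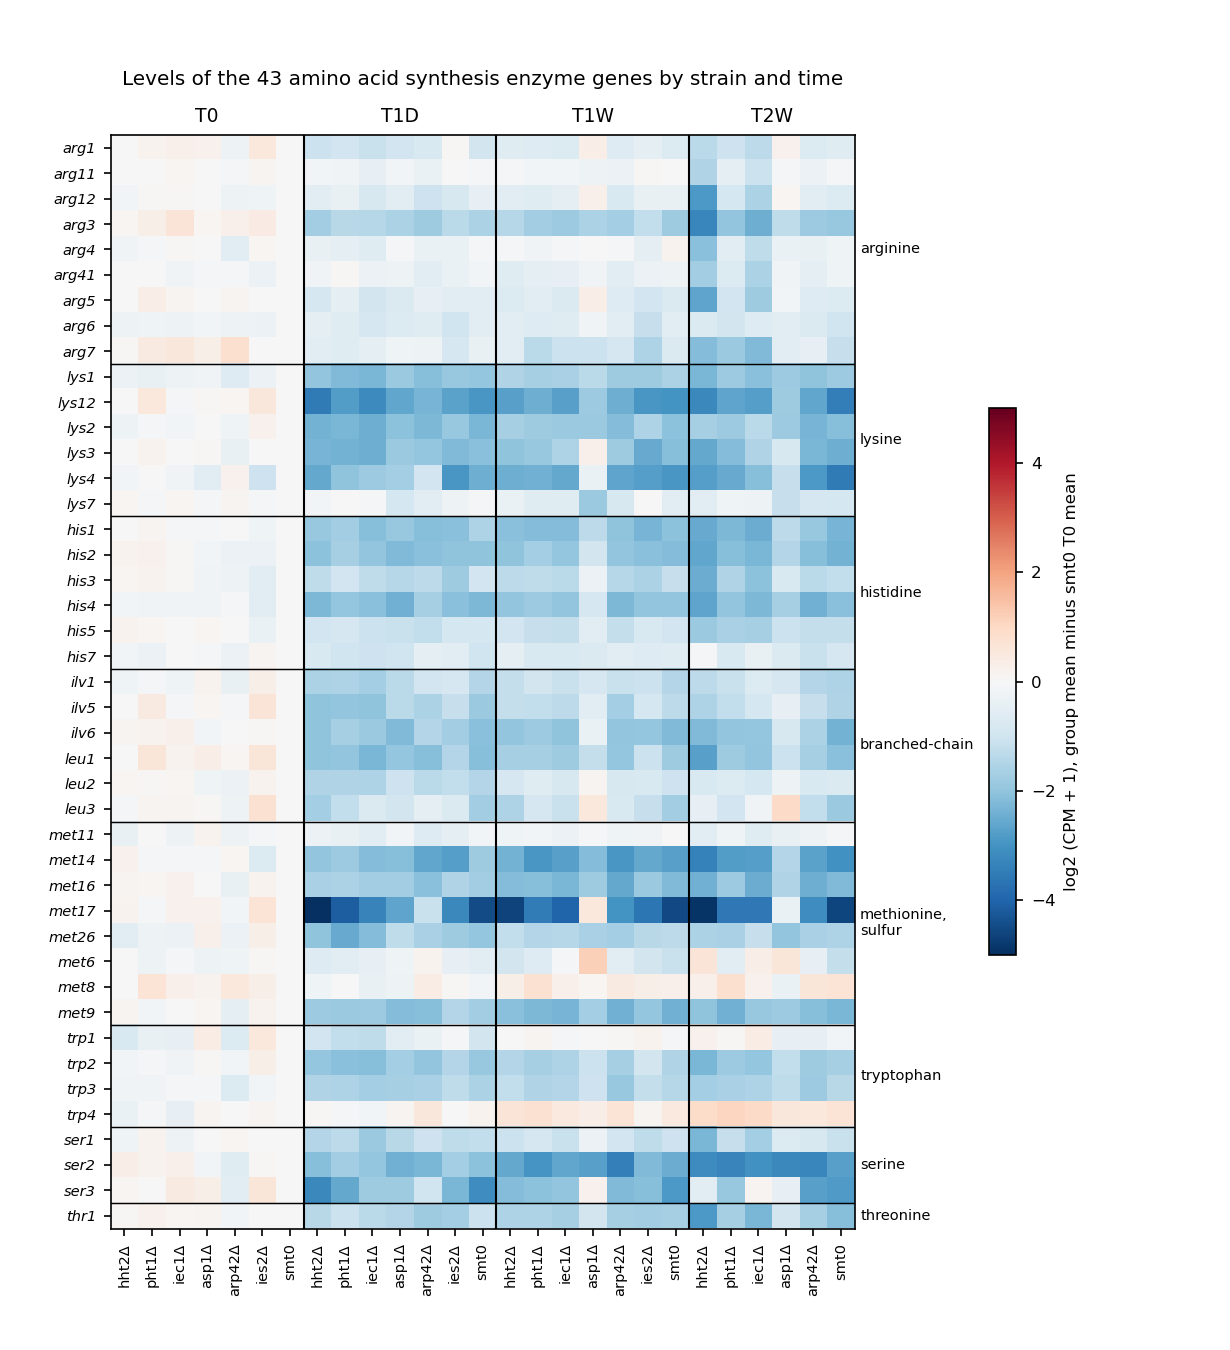
Mean log2(CPM + 1) of each of the 43 enzyme genes (rows, by pathway) in every strain and time point (columns) minus its mean in *smt0* at T0, from red (higher) to blue (lower). The T0 columns are pale, most rows turn blue from T1D on, the *asp1∆* columns at T1W and T2W are paler than those beside them, and several arginine rows (such as *arg4*, *arg11* and *arg41*) stay pale except in *hht2∆* and *iec1∆* at T2W.

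The steepest fall was that of *met17* (chrII:465475-467247 in the ASM294v2 coordinates of the count table, plus strand), which encodes homocysteine synthase, the enzyme that joins sulfide to an acetylated homoserine. It had 19.3, 14.5 and 20.6 CPM at T1D, against 535, 402 and 348 CPM at T0 (log2 fold change -4.57, SE 0.32, edgeR adjusted p = 8.4e-19). All 3 starved cultures lay far below the lowest growing one. It stayed there, with 15.1, 21.3 and 17.3 CPM at T1W and 21.9, 18 and 11 CPM at T2W. Of the 8 methionine and sulfur genes, 6 were lower at T1D, among them *met14* (adenylylsulfate kinase) at -1.71 (SE 0.23) and *met26* at -1.91 (SE 0.22). The 2 that did not pass at T1D were *met11*, a methylenetetrahydrofolate reductase (-0.13), and *met8*, which makes the siroheme cofactor of sulfite reductase. *met8* did not pass at T1W either and was higher at T2W, with 56.2, 37.4 and 63.5 CPM at T2W against 35.1, 31.8 and 29 at T0 (log2 fold change 0.71, SE 0.19, edgeR adjusted p = 0.0012).

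All 3 serine genes fell. *ser3*, phosphoglycerate dehydrogenase and the first step of the pathway (chrIII:470073-472362), had 88.6, 78.9 and 70.8 CPM at T1D, against 763, 660.4 and 635 CPM at T0 (log2 fold change -3.11, SE 0.43, edgeR adjusted p = 1.4e-08). The groups were far apart. *ser2*, the phosphoserine phosphatase, changed by -2.05 (SE 0.20) at T1D and by -2.71 (SE 0.21) at T2W.

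In the lysine pathway 5 of 6 genes were lower at T1D and all 6 at T1W and T2W. *lys12*, homoisocitrate dehydrogenase, had 39.6, 28.2 and 34.6 CPM at T1D, against 320.5, 256 and 217 CPM at T0 (log2 fold change -2.96, SE 0.26, edgeR adjusted p = 1.4e-14). *lys4* (chrII:3505708-3507472) had 1392, 1361 and 1221 CPM at T0. After 1 day it had 321, 233 and 197 CPM, after 1 week 167, 203 and 161 CPM and after 2 weeks 162, 123 and 75.2 CPM. At T2W its change from T0 was -3.46 (SE 0.31, edgeR adjusted p = 1.2e-14), and its T2W cultures lay below its T1D cultures without overlap. *lys7*, the phosphopantetheinyl transferase that activates the aminoadipate reductase, was the one that did not pass at T1D (-0.07).

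All 6 branched-chain and all 6 histidine genes were lower at each of the 3 times. At T1D the branched-chain genes changed by -2.13 to -1.47 on the log2 scale and the histidine genes by -2.24 to -0.88. *leu3*, isopropylmalate synthase, had 284, 240.3 and 339 CPM at T1D, against 969, 1013 and 912 CPM at T0 (log2 fold change -1.75, SE 0.27). *his1*, the ATP phosphoribosyltransferase that opens the histidine pathway, had 190.0, 159.8 and 125 CPM at T1D and 90.5, 94.8 and 82.3 CPM at T2W, against 499.7, 459.6 and 401 CPM at T0. *thr1*, homoserine kinase, was lower too, by -1.07 (SE 0.21) at T1D and -2.14 (SE 0.22) at T2W.

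Of the 9 arginine genes, 3 were lower at T1D (*arg1*, acetylornithine aminotransferase, *arg3*, ornithine carbamoyltransferase, and *arg6*, acetylglutamate synthase), 5 at T1W and 4 at T2W, and their median change at T1D was -0.39. *arg4*, the large subunit of the arginine-specific carbamoyl-phosphate synthase, had 1348, 1250.0 and 1817 CPM at T1D, against 1615, 1516 and 1429 CPM at T0, and the groups overlapped (log2 fold change -0.05, SE 0.33). *arg11* (acetylglutamate kinase and reductase), *arg12* (argininosuccinate synthase) and *arg41* (an argininosuccinate lyase) passed the test at no time. The tryptophan genes were mixed: 3 of 4 were lower at T1D, but *trp4*, the phosphoribosyltransferase of the pathway, was higher at T1W and T2W, with 60.9, 57.4 and 65.6 CPM at T2W against 37.9, 38.7 and 37.4 at T0 (log2 fold change 0.69, SE 0.17, edgeR adjusted p = 2.7e-04).

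The members without an amino acid enzyme differed among themselves. *trp1322* was higher at all 3 times, with 141, 125 and 141 CPM at T1D against 50.6, 56.8 and 49 at T0 (log2 fold change 1.38, SE 0.15, edgeR adjusted p = 3.0e-11). *trp663* was called higher at T1D and T1W from low values, 2.27, 3.75 and 5.09 CPM at T1D against 1.25, 0.7 and 0.173 at T0. It lies wholly opposite *cid12*. *arg82* was lower at all 3 times, by -2.02 (SE 0.23) at T1D. *ser2-antisense-1* was higher at all 3 times, with 8.12, 5.08 and 3.75 CPM at T1D against 0.627, 1.17 and 1.38 at T0 (log2 fold change 2.43, SE 0.43). Its sense gene *ser2* was lower at the same times. The antisense RNAs had few reads: 3 to 139 counts per library for *ser2-antisense-1*, 0 to 119 for *arg4-antisense-1* and 0 to 19 for *his5-antisense-1*.

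Reads from overlapping genes could be assigned to the wrong member, and 32 of the 49 members overlap a gene on the other strand and 14 one on the same strand. *his5* lies wholly inside *his5-antisense-1*, and it had 145 to 3351 counts per library where the antisense RNA had at most 19, so the table holds the strands apart there. For *lys1*, *lys2*, *arg41*, *met14* and *trp663* the whole gene lies opposite another gene.

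Relative to other genes, most members were lower at T1D in every mutant too. Against their own T0, the members were called as follows: *hht2∆* 4 higher and 33 lower (all genes: 29% higher and 30.4% lower), *pht1∆* 2 and 37 (all genes: 27.5% higher and 27.5% lower), *iec1∆* 4 and 38 (all genes: 28.7% higher and 26.7% lower), *asp1∆* 3 and 37 (all genes: 27.2% higher and 27.9% lower), *arp42∆* 7 and 34 (all genes: 30.2% higher and 29.9% lower) and *ies2∆* 2 and 35 (all genes: 27.6% higher and 27.8% lower). In all 7 strains 27 of the 49 members were lower (55.1%), against 14.4% of all genes. Without culture B of *ies2∆* at T1D, the members of *ies2∆* were 2 higher and 34 lower.

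**Figure D2:**
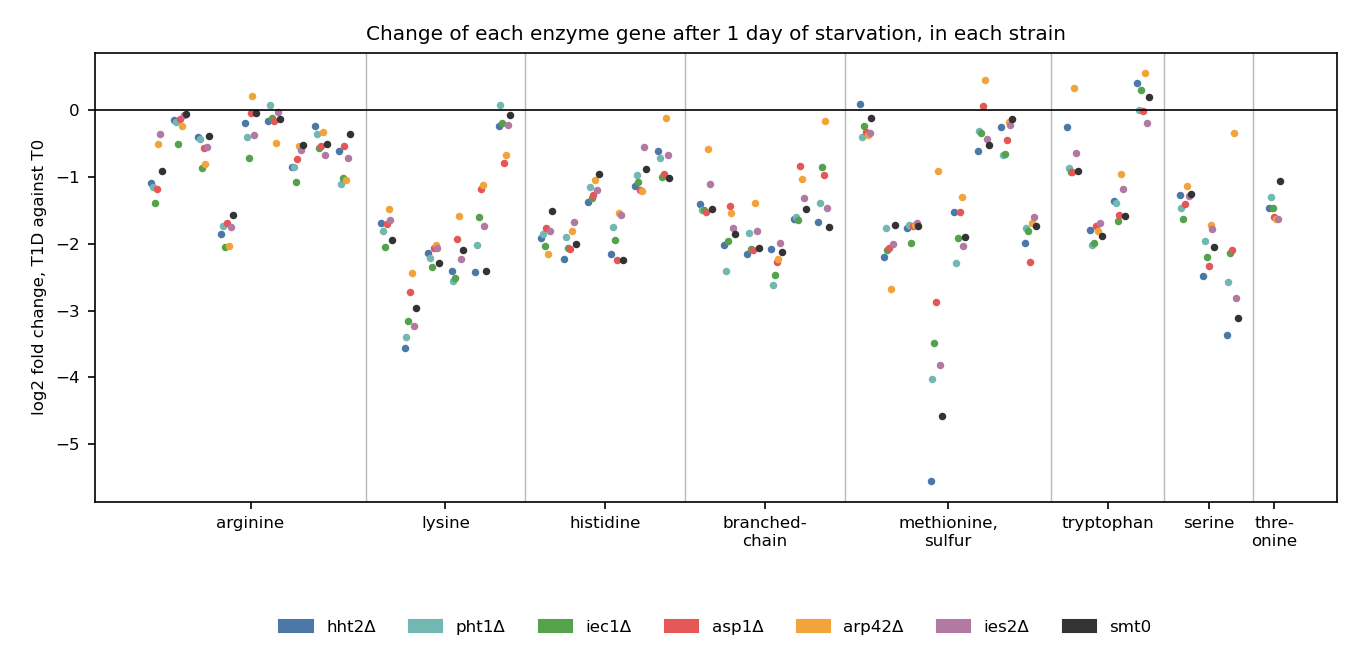
Log2 fold change of each enzyme gene at T1D against T0 of the same strain (vertical axis), in 7 strains (colors), with genes grouped by pathway along the horizontal axis. Most points lie below 0, those of *arg4*, *arg11* and *arg41* lie close to 0 in *smt0*, and *met17* and *ser3* spread most between strains.

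Against *smt0* at T0 few members differed, and the values are given with those of all genes. These comparisons share the *smt0* cultures of each time point. *arp42∆* had 3 members higher and 5 lower (all genes: 9.35% higher and 10.4% lower), *ies2∆* 4 and 4 (all genes: 11.8% higher and 9.87% lower), *iec1∆* 3 higher (all genes: 4.22% higher and 2.63% lower) and *pht1∆* 2 higher (all genes: 5.39% higher and 5.87% lower). With 1 culture left out, the members called were 4, 4 and 6 without cultures A, B and C of *arp42∆* and 5, 5 and 5 without those of *smt0*. In *ies2∆* they were 4, 5 and 7 without cultures A, B and C of *ies2∆* and 4, 1 and 1 without those of *smt0*. In *iec1∆* they were 1 to 2 and in *pht1∆* 1 to 4, the most without its culture A. With edgeR no member was called in *hht2∆* (all genes: 2.24% higher and 2.62% lower) or *asp1∆* (all genes: 1.48% higher and 1.62% lower), where 4 and 3 members had an unadjusted p under 0.05 and DESeq2 called 1 and 0. Without culture A of *hht2∆* 2 members were called lower there. *ser2-antisense-1* was the one member called higher in 4 mutants at T0, by 1.22 to 2.06 on the log2 scale. When only the groups compared were fitted, the call was lost in *pht1∆* (edgeR adjusted p = 0.061) and in *ies2∆* (0.083), and with 1 culture left out it was lost in 2 of 6 fits in *pht1∆* and in 5 of 6 in *ies2∆*.

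At T1D the number of members called varied between the mutants, as did the share of all genes called. On the relative scale *arp42∆* had 12 members higher and 6 lower than *smt0* (all genes: 15.9% higher and 13.6% lower), *ies2∆* 9 and 7 (all genes: 22.8% higher and 20.7% lower), *asp1∆* 5 and 1 (all genes: 6.45% higher and 4.74% lower) and *iec1∆* 4 and 3 (all genes: 9.56% higher and 2.69% lower). Without culture B of *ies2∆* at T1D its members were 11 higher and 3 lower. The 6 members called in *asp1∆* became 2, 2 and 3 without cultures A, B and C of *asp1∆* and 3, 2 and 6 without those of *smt0*, and the 7 in *iec1∆* became 3 without its culture B. With edgeR no member was called in *hht2∆* (all genes: 0.348% higher and 0.0605% lower) or *pht1∆* (all genes: 3.72% higher and 2.13% lower), where 3 and 7 had an unadjusted p under 0.05 and DESeq2 called 0 and 2. Without culture A of *smt0* 3 members were called in *pht1∆*. Scaled by ERCC, all 49 members were lower at T1D than in *smt0* in *pht1∆* (all genes: 0.0151% higher and 93.8% lower), *iec1∆* (all genes: 0.106% higher and 93.7% lower), *asp1∆* (all genes: 0.0151% higher and 96.4% lower) and *arp42∆* (all genes: 0.0151% higher and 98.4% lower). The members' medians there were -3.13, -3.79, -4.41 and -6.44 in these 4 strains. Relative to other genes, *met17* and *leu3* were both higher in *iec1∆*, *asp1∆*, *arp42∆* and *ies2∆*.

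*met17* had 277, 223 and 116 CPM in *arp42∆* at T1D, against 19.3, 14.5 and 20.6 CPM in *smt0* (log2 fold change 3.51, SE 0.30, edgeR adjusted p = 5.4e-14). The groups do not overlap, and the *arp42∆* cultures were spread, with culture C the lowest. In *asp1∆* it had 74, 59.4 and 69.5 CPM (log2 fold change 1.91, SE 0.29), in *ies2∆* 60.2, 26.1 and 56.9 CPM (log2 fold change 1.42, SE 0.29) and in *iec1∆* 29, 66.5 and 35.9 CPM (log2 fold change 1.28, SE 0.29). All of these cultures lay above those of *smt0*. *ser3* had 547, 322 and 226 CPM in *arp42∆*, against 88.6, 78.9 and 70.8 CPM in *smt0* (log2 fold change 2.2, SE 0.42, edgeR adjusted p = 4.5e-05), again without overlap. Further members higher in *arp42∆* were *lys4* (log2 fold change 1.48, SE 0.29), *leu3* (log2 fold change 1.32, SE 0.26) and *met6*, homoserine O-acetyltransferase (log2 fold change 0.75, SE 0.17), and lower ones were *thr1* (log2 fold change -0.69, SE 0.21) and *his1* (log2 fold change -0.61, SE 0.16). The M cell genes summed to 4328 to 11954 CPM in *arp42∆* and 4989 to 7117 CPM in *smt0* at T1D, and 3 of the 6 were lower in *arp42∆*. Their part in these results was not tested.

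The response itself, T1D minus T0, was tested for a difference from that of *smt0*. Relative to other genes, it differed in *arp42∆* for 15 members, with 12 above *smt0* and 3 below (all genes: 12.3% higher and 10.8% lower). The differences were 3.65 (SE 0.40) for *met17*, 2.76 (SE 0.58) for *ser3* and 1.59 (SE 0.37) for *leu3* on the log2 scale. *ser3* had 547, 322 and 226 CPM at T1D against 397, 444 and 554 CPM at T0 in *arp42∆*, and the groups overlapped, whereas in *smt0* they were far apart. In *asp1∆* the response differed for 3 members (all genes: 2.88% higher and 2.29% lower) and in *ies2∆* for 1 (all genes: 3.21% higher and 2.56% lower), which was lost without culture A of *ies2∆* at T0, culture B of *ies2∆* at T1D, or culture A of *smt0* at either time. In *hht2∆*, *pht1∆* and *iec1∆* edgeR and DESeq2 called no member, and 2, 4 and 4 had an unadjusted p under 0.05 with edgeR (all genes: 1.27% higher and 0.53% lower, 1.68% higher and 0.832% lower and 2.27% higher and 0.757% lower). Without culture A of *iec1∆* at T1D 1 member was called in that strain. On the ERCC scale the change lay below that of *smt0* for 47 members in *pht1∆* (all genes: 0.166% higher and 87.7% lower), 47 in *iec1∆* (all genes: 0.151% higher and 90.6% lower), 49 in *asp1∆* (all genes: 0.0908% higher and 95% lower) and 47 in *arp42∆* (all genes: 0.151% higher and 96.3% lower), and above it for none. The members' median difference in *arp42∆* was -5.35, and that of all genes -5.61.

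**Figure D3:**
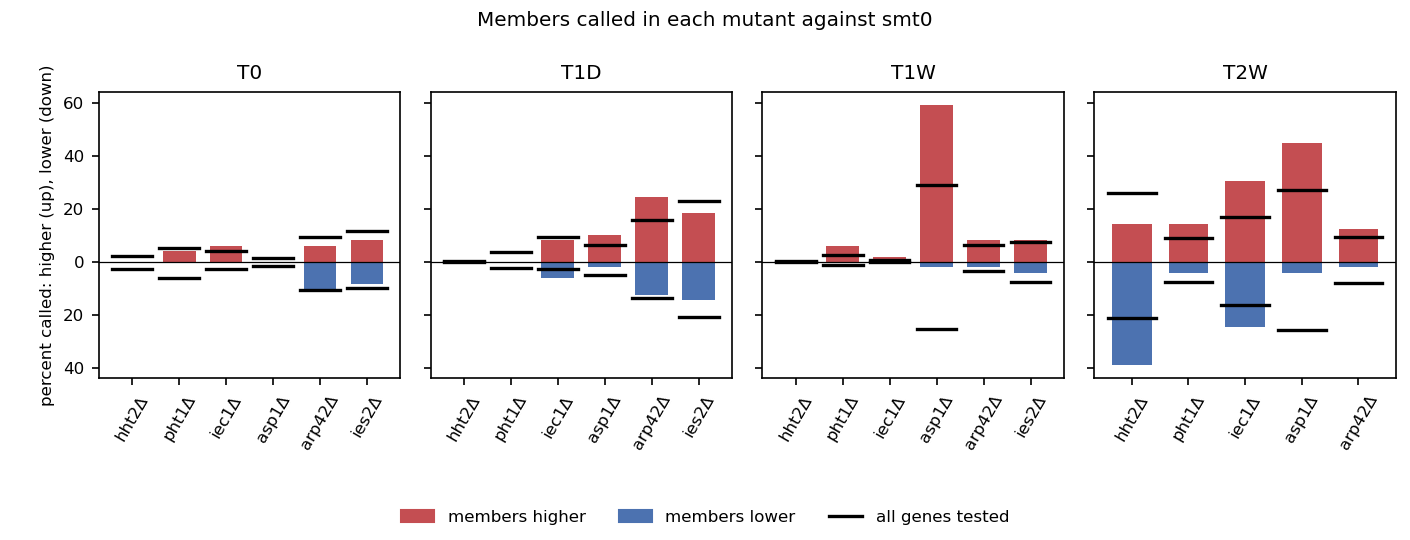
Percent of the 49 members called higher (red, above 0) or lower (blue, below 0) in each mutant against *smt0* at the same time on the relative scale, with the percent of all 6608 genes as black lines. In *asp1∆* at T1W the members higher (29 of 49) stand above the line for all genes and the members lower (1 of 49) far inside it.

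At T1W most members were higher in *asp1∆* relative to other genes: 29 of the 49 members were higher than in *smt0* and 1 was lower, against 29% higher and 25.3% lower of all genes. The members' median log2 fold change was 0.57, and that of all genes 0.07. With ERCC scaling the direction turned, with 1 member higher and 12 lower (all genes: 3.09% higher and 50% lower) and a median of -0.995 for the members and -1.53 for all genes. The 1 higher member there was *met17*, and the 13 called became 7, 25 and 2 without cultures A, B and C of *asp1∆* and 2, 9 and 25 without those of *smt0*. By pathway, on the relative scale, 6 of 6 branched-chain genes were higher, 5 of 6 histidine genes, 5 of 8 methionine and sulfur genes, 3 of 6 lysine genes, 2 of 3 serine genes, 3 of 9 arginine genes, 1 of 4 tryptophan genes and *thr1*. The enzyme genes took 1.57% ± 0.0684 of the gene reads in *asp1∆*, against 1.16% ± 0.0917 in *smt0* at T1W (SD, n = 3 each). In the other mutants at T1W, on the relative scale, *pht1∆* had 3 members higher (all genes: 2.81% higher and 0.969% lower), *iec1∆* 1 higher (all genes: 0.666% higher and 0.0303% lower), *arp42∆* 4 higher and 1 lower (all genes: 6.39% higher and 3.21% lower) and *ies2∆* 4 and 2 (all genes: 7.49% higher and 7.45% lower). In *hht2∆* edgeR and DESeq2 called no member and 5 had an unadjusted p under 0.05 with edgeR (all genes: 0.454% higher and 0.0303% lower). With 1 culture left out, the members called in *arp42∆* were 2, 1 and 6 without cultures A, B and C of *arp42∆* and 5, 2 and 4 without those of *smt0*. Those in *ies2∆* were 3, 5 and 2 without cultures A, B and C of *ies2∆* and 3, 6 and 3 without those of *smt0*, and those in *pht1∆* were 1, or 4 without its culture C. In *arp42∆* 47 members were lower on the ERCC scale and none higher (all genes: 0.0454% higher and 92.4% lower).

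*met17* had 580.5, 654 and 605 CPM in *asp1∆* at T1W, against 15.1, 21.3 and 17.3 CPM in *smt0* (log2 fold change 5.11, SE 0.33, edgeR adjusted p = 1.0e-19). In growing *asp1∆* cells it had 512, 459.6 and 508 CPM and at T1D 74, 59.4 and 69.5 CPM. In share of reads the T1W cultures of *asp1∆* thus lay above its own growing cultures, and the 3 groups did not overlap. The order turned on the ERCC scale. There the enzyme genes changed by -8.49 to -5.56 (log2) in *asp1∆* from T0 to T1D. From T1D to T1W *met17* rose by 1.75 on that scale (SE 0.67, edgeR adjusted p = 0.029), and the groups overlapped.

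*ser3* had 692, 861 and 811 CPM in *asp1∆* at T1W, against 92, 101 and 85.8 CPM in *smt0* (log2 fold change 3.09, SE 0.43, edgeR adjusted p = 2.7e-08). *lys4* had 1124, 1165 and 922 CPM in *asp1∆*, against 167, 203 and 161 CPM in *smt0* (log2 fold change 2.6, SE 0.30, edgeR adjusted p = 1.9e-10). *leu3* (chrII:2688416-2690687) had 1276, 1607 and 1345 CPM in *asp1∆*, against 241, 321 and 309.9 CPM in *smt0* (log2 fold change 2.28, SE 0.27, edgeR adjusted p = 4.5e-10). For all 3 genes every *asp1∆* culture lay above every *smt0* culture. *met6*, which makes the acetylated homoserine that *met17* uses, had 917, 994 and 906 CPM in *asp1∆* and 199.9, 185 and 177 CPM in *smt0* (log2 fold change 2.33, SE 0.18, edgeR adjusted p = 2.8e-16). In share of reads its *asp1∆* cultures at T1W also lay above those at T0, which had 345, 343 and 332 CPM. On the ERCC scale the mean of *met6* was 6534 in *asp1∆* at T1W, against 317234 in *smt0* at T0, which differs in strain as well as time. Within *asp1∆* it changed by -0.03 (log2) on that scale from T1D to T1W.

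**Figure D4:**
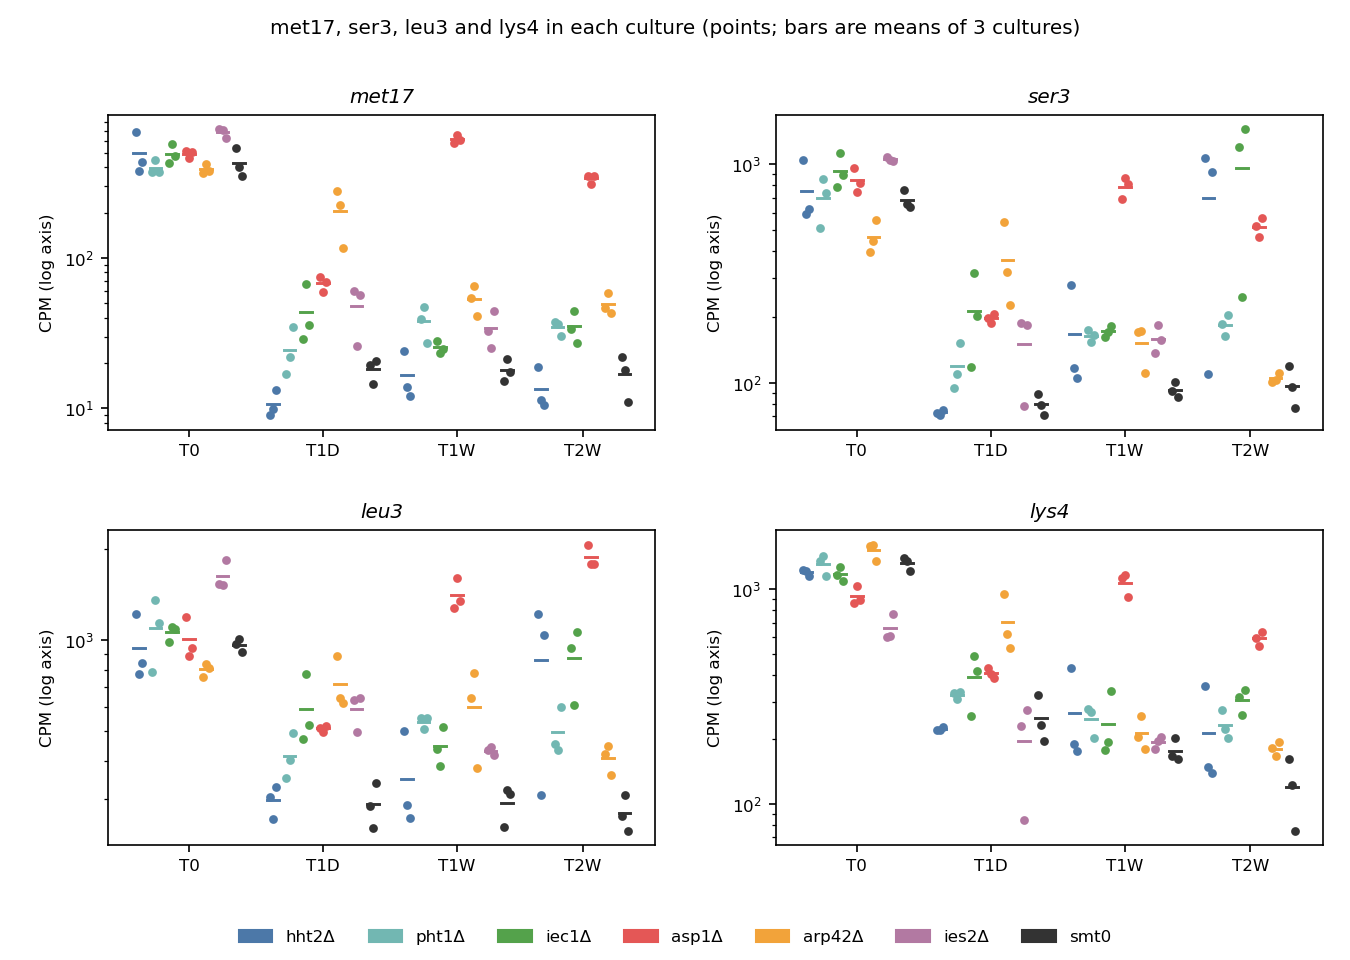
CPM (log axis) of *met17*, *ser3*, *leu3* and *lys4* in each culture (points) with the mean of 3 cultures (horizontal lines), by time and by strain (colors). All strains are high at T0; from T1D on *smt0* (black) is low, *asp1∆* (red) is high again at T1W and T2W, and in *hht2∆* (blue) and *iec1∆* (green) culture B lies below A and C for *ser3* and *leu3* at T2W, though above *smt0* in *iec1∆*.

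The single member lower in *asp1∆* at T1W was *lys7*, with 11.3, 10.2 and 10.2 CPM in *asp1∆* against 26.8, 26.5 and 28.6 CPM in *smt0* (log2 fold change -1.38, SE 0.19, edgeR adjusted p = 1.1e-08). *arg1* and *arg5* (the small subunit of carbamoyl-phosphate synthase) were among the arginine genes that were higher, at 1.03 (SE 0.22) and 1.06 (SE 0.30). *arg4* had 1521, 1474 and 1479 CPM in *asp1∆* and 1412, 1907 and 1868 CPM in *smt0*, and did not pass the test. *leu1*, isopropylmalate dehydrogenase, had 145, 167 and 162 CPM in *asp1∆* and 87.5, 118 and 113 CPM in *smt0* (log2 fold change 0.57, SE 0.22). Without 1 culture of either strain in turn, between 24 and 29 members were called in *asp1∆* at T1W.

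Set against its own T1D, a comparison added after the data were seen, *asp1∆* had on the relative scale 30 members higher and 2 lower at T1W (all genes: 21.8% higher and 22% lower) and 23 higher and 2 lower at T2W (all genes: 16.7% higher and 17.2% lower). *lys3*, saccharopine dehydrogenase, had 477, 463 and 525 CPM at T1W, against 102, 112 and 123 CPM at T1D (log2 fold change 2.12, SE 0.20). *ilv6*, the regulatory subunit of acetolactate synthase, had 457, 439.6 and 439 CPM at T1W, against 128, 108 and 127 CPM at T1D (log2 fold change 1.88, SE 0.19). On this scale neither gene had overlapping groups. On the ERCC scale 1 member was higher and 7 were lower at T1W against T1D (all genes: 1.07% higher and 43.7% lower; median log2 fold change -0.93 for the members and -1.48 for all genes). There *lys3* (log2 fold change 0.64, edgeR adjusted p = 0.39) and *ilv6* (0.43, edgeR adjusted p = 0.57) did not pass and their groups overlapped. At T2W against T1D edgeR called no member on the ERCC scale, and 4 had an unadjusted p under 0.05 (all genes: 0.197% higher and 1.66% lower). The M cell genes summed to 234 to 293 CPM in *asp1∆* at T1W, against 4436 to 5782 CPM in *asp1∆* at T1D and 347 to 1207 CPM in *smt0* at T1W, and 4 of 6 were lower in *asp1∆* than in *smt0* at T1W. Their part in the result was not tested.

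At T2W *asp1∆* had 22 members higher and 2 lower than *smt0* relative to other genes (all genes: 27.1% higher and 25.5% lower). The direction turned on the ERCC scale, with 1 higher and 6 lower and a median of -0.90 (all genes: 1.76% higher and 35.7% lower). These 7 became 2, 4 and 1 without cultures A, B and C of *asp1∆* and 3, 1 and 17 without those of *smt0*. *met17* had 352, 312 and 352 CPM in *asp1∆*, against 21.9, 18 and 11 CPM in *smt0* (log2 fold change 4.3, SE 0.32, edgeR adjusted p = 2.7e-16). *leu3* had 2071, 1780.3 and 1793 CPM in *asp1∆*, against 262, 307 and 235 CPM in *smt0* (log2 fold change 2.81, SE 0.28, edgeR adjusted p = 3.2e-12), and its *asp1∆* cultures at T2W lay above the T0 cultures of all strains, except that cultures B and C lay below culture C of *ies2∆*. That order is one of shares of reads. On the ERCC scale the mean of *leu3* was 19245 in *asp1∆* at T2W, against 748177 in *smt0* at T0, which differs in strain as well as time. Within *asp1∆* it changed by 1.02 (log2) on that scale from T1D to T2W and did not pass the test. *met8* was lower in *asp1∆*, with 24.2, 23.6 and 27.9 CPM against 56.2, 37.4 and 63.5 CPM in *smt0* (log2 fold change -1.05, SE 0.20), and so was *ser2* (log2 fold change -0.55, SE 0.22). The M cell genes summed to 1774 to 2905 CPM in *asp1∆* and 768 to 800.4 CPM in *smt0* at T2W, the opposite order from T1W.

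Of 27 further amino acid synthesis genes chosen by function (*hom2*, *hom3*, *asn1*, *gln1*, *cys2*, *gly1* and others), 20 were lower and none higher in *smt0* at T1D (all genes: 26.6% higher and 27.4% lower), and 16 were higher and 1 lower in *asp1∆* than in *smt0* at T1W, with a median log2 fold change of 0.69 (all genes: 29% higher and 25.3% lower). Among them *hom2* and *hom3*, the steps from aspartate towards threonine and methionine, changed by 2.29 and 2.09 and *asn1*, asparagine synthase, by 1.5 on the log2 scale. Of 10 genes of general amino acid control, 3 were higher and 4 lower in *asp1∆* at T1W, and the activator gene *fil1* did not pass the test (log2 fold change 0.12, SE 0.25). Of 11 genes of amino acid breakdown, 2 were higher and 5 lower. These shares stand against the same shares of all genes.

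At T2W the libraries of *hht2∆* and of *iec1∆* split: cultures A and C resembled each other and culture B stood apart in both strains. On the relative scale *hht2∆* had 7 members higher and 19 lower than *smt0* (all genes: 25.8% higher and 21% lower), and *iec1∆* had 15 higher and 12 lower (all genes: 17% higher and 16.3% lower). Among the lower members were 8 of the 9 arginine genes in *hht2∆* and 7 of the 9 in *iec1∆*. Without culture A of *hht2∆* the members were 5 higher and 8 lower, and without culture C they were 7 higher and 9 lower. Over all libraries left out in turn, 13 to 28 members were called in *hht2∆* and 14 to 36 in *iec1∆*. When only the groups compared were fitted, edgeR lost every call in *hht2∆* and kept a count of 1 in *iec1∆*, while DESeq2 over all groups called 8 higher and 16 lower in *hht2∆*. Scaled by ERCC, *hht2∆* had 1 member higher and 20 lower (all genes: 2.66% higher and 21.4% lower) and *iec1∆* 3 lower (all genes: 0.62% higher and 2.94% lower). With 1 culture left out, the members called on it in *hht2∆* were 2, 14 and 1 without cultures A, B and C of *hht2∆* and 13, 0 and 33 without those of *smt0*. Those in *iec1∆* were 0, 9 and 0 without cultures A, B and C of *iec1∆* and 2, 0 and 25 without those of *smt0*.

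*arg12* had 76.7, 433 and 46.4 CPM in cultures A, B and C of *hht2∆* at T2W and 199, 572 and 201 CPM in those of *iec1∆*, against 455, 646 and 490.3 CPM in *smt0*. It passed the test in *hht2∆* (log2 fold change -1.52, SE 0.34, edgeR adjusted p = 2.2e-04) and not in *iec1∆* (log2 fold change -0.72, SE 0.33), and culture B of *iec1∆* lay within the range of *smt0*. *arg4* had 221, 1335 and 157 CPM in *hht2∆* and 447, 1076 and 503 CPM in *iec1∆*, against 1099, 1630.3 and 1266 CPM in *smt0*. The A and C cultures lay far below *smt0* and the B culture close to it or within it, and culture B was also the highest of the *smt0* cultures. *arg5* had 54.9, 310.3 and 59.1 CPM in *hht2∆* and 142, 300.2 and 143 CPM in *iec1∆*, against 266, 556 and 409 CPM in *smt0* (log2 fold change -1.54, SE 0.30 and -1.08, SE 0.30). For *arg41* all 6 mutant cultures lay below *smt0*, with 86.6, 234 and 77 CPM in *hht2∆* and 89.7, 253 and 94.4 CPM in *iec1∆*, against 255, 403 and 364 CPM in *smt0*. *arg3* (log2 fold change -1.27, SE 0.20 in *hht2∆*) and *arg11* (log2 fold change -1.18, SE 0.22) had the same order of cultures, as did *arg7*. *arg6* was the exception, with 108, 80.4 and 83.6 CPM in *hht2∆* and 95.4, 77.9 and 109.6 CPM in *iec1∆*, against 82.3, 72.8 and 64.6 CPM in *smt0*.

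**Figure D5:**
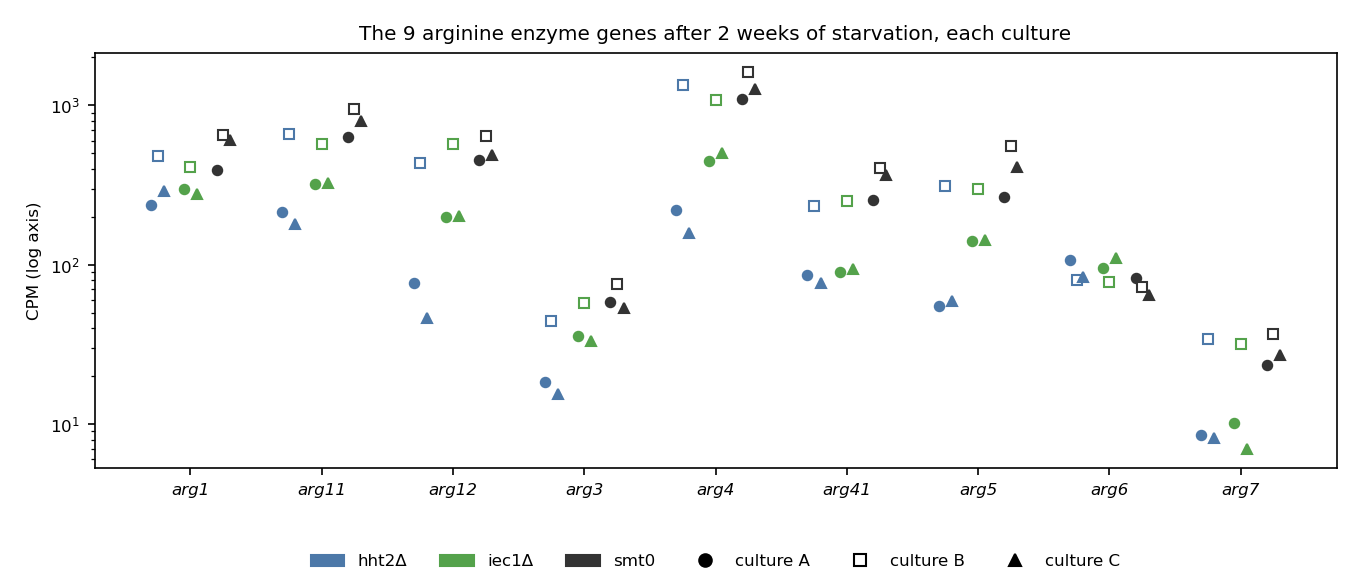
CPM (log axis) of the 9 arginine enzyme genes at T2W in each culture of *hht2∆* (blue), *iec1∆* (green) and *smt0* (black), with culture A as circles, B as open squares and C as triangles. The open squares of both mutants lie near *smt0* while their circles and triangles lie below it for most genes, and *arg6* shows no such split.

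The same split showed in the other direction for *ser3*, which had 1063, 109 and 922 CPM in *hht2∆* and 1201, 247 and 1443 CPM in *iec1∆* at T2W, against 119, 95.6 and 76.3 CPM in *smt0*. The high cultures were A and C, and culture B of *hht2∆* lay within the range of *smt0*. *leu3* had 1225, 307 and 1041 CPM in *hht2∆* and 942, 610.1 and 1062 CPM in *iec1∆*, against 262, 307 and 235 CPM in *smt0* (log2 fold change 1.68, SE 0.27 and 1.7, SE 0.27). *met6* was higher in all 6 cultures, with 794, 421 and 799 CPM in *hht2∆* and 507, 527 and 511 CPM in *iec1∆*, against 178, 197 and 167 CPM in *smt0* (log2 fold change 1.89, SE 0.18, edgeR adjusted p = 6.3e-12, and log2 fold change 1.51, SE 0.18, edgeR adjusted p = 3.3e-08). *met17* stayed low in *hht2∆*, with 18.8, 11.3 and 10.5 CPM against 21.9, 18 and 11 CPM in *smt0*. The reads on *hht2* were 36.0%, 0.729% and 15% of the *smt0* mean in cultures A, B and C of *hht2∆* at T2W. The M cell genes summed to 360 to 640 CPM in *hht2∆* and 768 to 1399 CPM in *iec1∆*, against 768 to 800.4 CPM in *smt0*. The part of either in these results was not tested.

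On the relative scale *pht1∆* had 7 members higher and 2 lower at T2W (all genes: 9.19% higher and 7.64% lower), and with 1 culture left out the members called were 4, 5 and 4 without cultures A, B and C of *pht1∆* and 11, 3 and 0 without those of *smt0*. *arp42∆* had 6 higher and 1 lower (all genes: 9.55% higher and 7.93% lower), which became 4, 3 and 7 without cultures A, B and C of *arp42∆* and 6, 4 and 5 without those of *smt0*. With ERCC scaling *arp42∆* had 41 lower and none higher (all genes: 0.0757% higher and 79.3% lower), which became 14, 0 and 45 without cultures A, B and C of *arp42∆* and 37, 0 and 44 without those of *smt0*. Relative to other genes, *met17* was higher in *pht1∆*, *iec1∆*, *asp1∆* and *arp42∆* at T2W, with 37.7, 36.1 and 30.4 CPM in *pht1∆*, 33.6, 44.6 and 27.3 in *iec1∆* and 46.2, 58.5 and 42.7 in *arp42∆*, all above the 3 *smt0* cultures. *met6* was higher in all 5 mutants at T2W, by 0.65 in *pht1∆* to 1.89 in *hht2∆* on the log2 scale. *leu3* was higher in 4 of the 5.

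The antisense RNAs were called higher in several mutants, from few reads. *arg4-antisense-1* had 12.2, 14.7 and 6.58 CPM in *arp42∆* at T1D, against 1.08, 0.583 and 2.68 CPM in *smt0* (log2 fold change 3.15, SE 0.62). At T2W it had 14.6, 1.28 and 27 CPM in *hht2∆* and 4.73, 4.3 and 4.02 CPM in *iec1∆*, against 1.23, 0.506 and 0.355 CPM in *smt0*, and in *hht2∆* cultures A and C were again the high ones. *ser2-antisense-1* had 22.1, 29.5 and 20.4 CPM in *asp1∆* at T1W, against 4.26, 0.875 and 4.25 CPM in *smt0* (log2 fold change 2.87, SE 0.38, edgeR adjusted p = 9.0e-09), with no overlap. *ser2* itself did not pass the test there (log2 fold change -0.27, SE 0.21). *his5-antisense-1* was called higher in *hht2∆* and *iec1∆* at T2W, from 0 to 19 counts per library.

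On the ERCC scale, which follows RNA per cell counted, 32 members were lower in *smt0* at T1D (all genes: 2.24% higher and 21.4% lower; median log2 fold change -2.42 for the members and -1.05 for all genes), and all 49 at T1W (all genes: 0.257% higher and 97.3% lower) and T2W (all genes: 0.318% higher and 96.1% lower). Without culture C of *smt0* at T1D, 18 were lower at T1D. Against their own T0, all 49 members were lower at T1D in *pht1∆* (all genes: 0.197% higher and 94.4% lower), *iec1∆* (all genes: 0.106% higher and 95.9% lower), *asp1∆* (all genes: 0.0757% higher and 97.9% lower) and *arp42∆* (all genes: 0% higher and 98.7% lower). By contrast, *hht2∆* had 1 member higher and 8 lower (all genes: 7.2% higher and 2.81% lower) and *ies2∆* 4 lower (all genes: 4.59% higher and 1.95% lower). In these 2 strains the members' medians were -1.21 and -1.22 and those of all genes 0.23 and 0.04. In the test of the response, in *hht2∆* (all genes: 1.04% higher and 0% lower) and *ies2∆* (all genes: 0.56% higher and 0.0303% lower) edgeR called no member, and 1 in each had an unadjusted p under 0.05. In *ies2∆* 1 member was higher than in *smt0* at T1D (all genes: 5.84% higher and 0.908% lower). That count became 0, 1 and 0 without cultures A, B and C of *ies2∆* and 10, 0 and 0 without those of *smt0*. This comparison holds the common shift of the *ies2∆* libraries, 3.70 (log2), and the enzyme genes' median in it was 0.871. The sign of that median thus rests on the shift, and counts at T1D without it are not given here. The study, whose methods name T0 for this correction, instead reports most genes as lower in *ies2∆* than in wild type at T1D. The comparison of *ies2∆* with its own T0 does not depend on a common shift. In *hht2∆* neither tool called a member at T1D, with 0 at an unadjusted p under 0.05 (all genes: 0.923% higher and 0.0151% lower). At T0 edgeR called no member in any mutant, 0 to 12 members per mutant had an unadjusted p under 0.05, and DESeq2 called 1, in *arp42∆*. When only the groups compared were fitted, edgeR called 99 member values at T0, of which 42 were in *arp42∆*, 17 in *hht2∆*, 16 in *asp1∆*, 16 in *ies2∆*, 7 in *iec1∆* and 1 in *pht1∆*. The shares of all genes in that smaller fit are not given here, so these calls cannot be read as particular to the members. In *arp42∆* at T0 the median log2 fold change over all groups was -1.15 for the members and -0.89 for all genes. In the fit over all groups, where edgeR called no member, the shares of all genes at T0 were 0.0151% higher and 0.0908% lower in *hht2∆*, 0.0757% higher and 0.121% lower in *pht1∆*, 0.424% higher and 0.121% lower in *iec1∆*, 0.378% higher and 0.272% lower in *asp1∆*, 0.0605% higher and 1.82% lower in *arp42∆* and 0.106% higher and 0.212% lower in *ies2∆*. At T1W 49 members were higher in *ies2∆* (all genes: 97.1% higher and 0.0151% lower), and these calls were all lost without the shift of its libraries. The study instead reports few genes as different between *ies2∆* and wild type at T1W. At T1W 1 member was higher in *iec1∆* (all genes: 1.03% higher and 0% lower), and 0 to 3 with 1 culture left out, the most without culture A of *smt0*. Without that culture 1 member was called in *pht1∆*. With all cultures neither tool called a member at T1W in *hht2∆* (all genes: 0.0303% higher and 0.0151% lower) or *pht1∆* (all genes: 0.242% higher and 0.0151% lower), with 0 and 3 at an unadjusted p under 0.05. At T2W in *pht1∆* edgeR and DESeq2 called no member and 16 had an unadjusted p under 0.05 with edgeR (all genes: 0.182% higher and 0.545% lower). Without culture B of *pht1∆* 24 members were called lower, and without culture C of *smt0* 22 were.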

How the data were processed

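RNA-seq was done on 81 libraries of 27 groups, 3 libraries each. Per the labels and the study's methods, the authors made the libraries from rRNA-depleted RNA with a stranded kit after adding ERCC spike-ins, demultiplexed with bcl2fastq 2.20.0.422, aligned with STAR 2.7.9a to ASM294v2 and ERCC sequences, and counted reads on exons with featureCounts 1.5.1. The strand setting of the counting is not given in the sources used here. The deposited values are raw counts per gene and per ERCC RNA. The chromatin immunoprecipitation samples of the series were not used here.

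The genes tested (6608 of 7014) were those over 1 CPM in 3 or more libraries. All 27 groups were fitted together with the quasi-likelihood test of edgeR 4.0.16 in R 4.3.3, with Benjamini-Hochberg adjustment within each of 40 comparisons and a threshold of 0.05. On the relative scale the library size was the gene total times its TMM factor. On the ERCC scale it was the total of the 92 ERCC RNAs times their TMM factor, and the sizes of all *ies2∆* libraries were changed by a common 3.70 (log2) to bring their mean ratio of gene to ERCC reads at T0 to that of the other strains. ERCC totals were 5678 to 3003773 per library, a counting error of at most 1.33%. The SE is the log2 fold change divided by the square root of F. The scripts were tested on simulated data. Cultures were described as biological replicates.

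The members and gene lists were chosen with earlier results of these data known. Members named in full were the 3 with the largest rise and the 3 with the largest fall per time in *smt0* (mean of at least 10 counts, no overlap), up to 5 called in the same direction in at least 3 mutants per time, the member with the highest count per kb in each pathway, *leu1*, and up to 3 per mutant in the interaction test. Others, such as *arg3*, *arg4*, *arg5*, *arg6*, *arg7*, *arg11*, *arg41*, *arg1*, *arg82*, *ser2*, *met14*, *lys3* and *ilv6*, were chosen after their values were seen. The list genes *aro3*, *aro4*, *thrc* and *car3* were not matched to the table. Alternatives were DESeq2 1.42.0, other size factors, no filter on low counts, only the groups compared in the fit, a replicate block and leaving out each library in turn. The letters A, B and C were checked for pairing by the correlation of deviations from the group means. All 3 correlations passed 0.1 only for *hht2∆* against *smt0* at T2W (0.48, 0.36 and 0.27). Promoters were those of RefSeq assembly ASM294v3, matched by locus tag.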

Additional observations from a re-analysis of the deposited data

Results flagged for a closer look

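The change at T1D against T0 was tested for a difference between each mutant and *smt0* (edgeR interaction term, Benjamini-Hochberg adjustment over 6608 genes), and 19 member values passed. Values are differences of log2 fold changes, mutant minus *smt0*. In *arp42∆* they were *his1* (-0.64), *lys7* (-0.61), *met14* (-0.97), *met17* (3.65), *ilv1* (0.89), *his7* (0.89), *his5-antisense-1* (3.3), *leu3* (1.59), *lys4* (1.28), *his4* (0.7), *arg4-antisense-1* (3.63), *met6* (0.96), *trp1* (1.25), *ser3* (2.76) and *trp3* (0.63). In *asp1∆* they were *lys7* (-0.73), *met17* (1.71) and *trp1322* (-0.82). In *ies2∆* the value was *ser2-antisense-1* (-2.12). The antisense RNAs among them rest on few reads. Over 5 other settings and 12 fits with 1 library left out, *lys7* in *asp1∆* lost its call in 4 and 10, *lys7* in *arp42∆* in 2 and 9, *his1* in *arp42∆* in 1 and 5, *ser2-antisense-1* in *ies2∆* in 1 (edgeR adjusted p = 0.17) and 4, *his5-antisense-1* in *arp42∆* in 1 and 0, and in *arp42∆* *his4* in 3 and 8, *trp3* in 0 and 6 and *met14* in 0 and 5. The *lys4* value in *arp42∆* lost its call without culture A of *arp42∆* at T1D and *trp1322* in *asp1∆* without culture A of *asp1∆* at T0. On the ERCC scale 47 members were below *smt0* in *arp42∆* and none above. The *ies2∆* libraries come from the second batch.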

How the results depend on the processing

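Of 104 alternative counts of members called, other than those that left out 1 library, 9 differed from the reported count by more than 1.5 times. Fitting only the groups compared gave, on the relative scale, 38 calls in mutants against *smt0* at T0 (reported 21), 26 at T1D (reported 47) and 34 at T2W (reported 93), and 38 in *asp1∆* at T2W against its own T1D (reported 25). On the ERCC scale it gave 99 at T0, where edgeR over all groups called no member and DESeq2 called 1, and 2 at T2W (reported 72). Without the shift of the *ies2∆* libraries the ERCC calls were 49 at T0 and 61 at T1W (reported 110). The cause was not tested.

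With 1 library left out, 7 of 288 counts differed by more than 1.5 times. Calls in *smt0* at T1D on the ERCC scale were 18 to 43 (reported 32), lowest without culture C of *smt0* at T1D. Calls in mutants against *smt0* at T0 on the relative scale were 8 to 23, lowest without cultures C (8) and B (9) of *smt0* at T0. Calls at T2W on the ERCC scale were 1 to 141: 1 without culture B of *smt0*, 141 without its culture C, and 45 and 31 without cultures A and B of *arp42∆*. Of 1638 alternative values for named genes 77 lost their call, and of 2046 with 1 library left out 285 did. None reversed. *met6* in *smt0* at T1D lost its call without culture C of *smt0* at T1D, *trp4* at T1W without culture C of *smt0* at T1W, and *met17* in *arp42∆* at T1D against its own T0 without culture C of *arp42∆* at T1D.

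With the replicate block, calls on the relative scale for mutants against *smt0* were 21, 47, 47 and 91 at the 4 successive time points, where 21, 47, 45 and 93 were reported, and *hht2∆* at T2W, the 1 comparison that the letters pair, had 7 members higher and 17 lower. The block moved no count by more than 1.5 times. The fits without culture A of *hht2∆* and the comparisons of *asp1∆* with its own T1D were added after the data were seen. Counting depth limits the antisense RNAs and *trp663*, which had few reads per library.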
